A study of Homo sapiens with 24 samples.

Results

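The 39 HOX genes of the 4 human clusters were described in polyadenylated RNA of 24 libraries from cells labelled SH-SY5Y, a neuroblastoma line. Members were chosen by name alone, as every gene of the count table called HOXA, HOXB, HOXC or HOXD followed by a number, and they made up 39 of the 60658 genes. There were 11 HOXA genes on chromosome 7, 10 HOXB genes on chromosome 17, 9 HOXC genes on chromosome 12 and 9 HOXD genes on chromosome 2. The study depleted ciRS-7 (CDR1as), a circular RNA known for binding the microRNA miR-7, in 4 setups that each had knockdown (KD) and non-targeting control (NTC) groups of 3 libraries. In the agoshRNA setup a transfected vector expressed a hairpin RNA that Argonaute processes. For gRNA and pre-gRNA, a CasRx-GFP plasmid (CasRx is an RNA-guided RNA nuclease) was transfected together with a plasmid for the mature or the precursor guide, and for syn-gRNA the guide was made by chemical synthesis. RNA was taken 48 h after transfection, and how the synthetic guide was delivered is not given in the labels used here.

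HOX genes encode homeodomain transcription factors that give cells their position along the body axis. Within a cluster the genes lie in the order of their paralog numbers, and low-numbered genes are known to be active towards the head while high-numbered ones are active towards the tail, in the limbs and in the urogenital tract. Cells in culture usually retain a HOX pattern from the tissue of origin, and Polycomb and trithorax complexes are known to hold genes of the clusters off or on.

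Total counts ranged from 10994974 to 16233777 per library. The labels do not say that the 3 libraries of a group came from separate cultures, so p-values measure the spread between these libraries, which may be technical. The label of the cells was set against defining genes: of 10 noradrenergic neuroblastoma genes, 0 reached a mean of 10 CPM (counts per 1000000 of the total of a library) and 7 were under 1 CPM. TH (noradrenaline synthesis) had at most 1 count in any library. DBH (a later enzyme of that path) averaged 0.02 CPM, PHOX2A 0.09 CPM, STMN2 0.04 CPM and ELAVL4 0.03 CPM. The 3 list members with a mean of 1 CPM or more, HAND2, GATA3 and ISL1, were detected in every library but averaged under 10 CPM. Summed over that list, groups lay between 17.03 and 24.56 CPM. Of 6 kidney-lineage genes, 4 reached 10 CPM, and of 6 mesenchymal genes 5 did (VIM at 872.1 CPM). Of the 10 noradrenergic genes of the labelled line, the expression data thus showed 3 at low levels and 7 under 1 CPM. The part of cell identity in the HOX levels was not tested. CDR1-AS, the annotated gene of the depleted RNA, lay between 0 and 1.08 CPM in all 24 libraries. Poly(A) selection does not retain circular RNA, so this is no check of the depletion.

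Promoters of 4 members and 1 microRNA bear on the comparisons that follow. HOXD12 and HOXD13 are neighbours whose levels were among the lowest and the highest of the 39 genes, and HOXA4 and HOXA6 were the members called between setups. Each window runs from 250 bases before to 50 after the annotated start, is read 5′ to 3′ on the gene's own strand and is taken from RefSeq on GRCh38.p14, with CG dinucleotides in capitals. The HOXD13 window is at chr2:176092471-176092770 on the plus strand, that of HOXD12 at chr2:176099545-176099844 on the plus strand, that of HOXA4 at chr7:27130708-27131007 on the minus strand and that of HOXA6 at chr7:27147725-27148024 on the minus strand.
HOXD13: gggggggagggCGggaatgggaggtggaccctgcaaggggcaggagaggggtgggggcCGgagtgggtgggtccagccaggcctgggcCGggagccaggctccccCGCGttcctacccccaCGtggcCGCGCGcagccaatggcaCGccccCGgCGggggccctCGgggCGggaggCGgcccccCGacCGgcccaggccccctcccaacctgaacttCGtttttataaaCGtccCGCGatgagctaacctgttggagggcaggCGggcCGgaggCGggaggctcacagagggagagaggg
HOXD12: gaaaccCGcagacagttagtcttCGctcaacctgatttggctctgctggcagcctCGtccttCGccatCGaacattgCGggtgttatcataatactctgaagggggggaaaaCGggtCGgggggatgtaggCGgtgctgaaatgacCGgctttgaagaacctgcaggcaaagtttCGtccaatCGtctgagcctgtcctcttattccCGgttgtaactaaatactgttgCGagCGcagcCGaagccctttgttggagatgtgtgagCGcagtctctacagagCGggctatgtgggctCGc
HOXA4: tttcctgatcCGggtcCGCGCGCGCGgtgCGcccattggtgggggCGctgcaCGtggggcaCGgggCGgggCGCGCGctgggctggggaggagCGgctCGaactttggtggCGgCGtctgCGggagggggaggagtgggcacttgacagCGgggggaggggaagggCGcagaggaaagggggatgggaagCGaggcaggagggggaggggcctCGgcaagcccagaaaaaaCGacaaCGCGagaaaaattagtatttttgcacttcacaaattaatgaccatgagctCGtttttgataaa
HOXA6: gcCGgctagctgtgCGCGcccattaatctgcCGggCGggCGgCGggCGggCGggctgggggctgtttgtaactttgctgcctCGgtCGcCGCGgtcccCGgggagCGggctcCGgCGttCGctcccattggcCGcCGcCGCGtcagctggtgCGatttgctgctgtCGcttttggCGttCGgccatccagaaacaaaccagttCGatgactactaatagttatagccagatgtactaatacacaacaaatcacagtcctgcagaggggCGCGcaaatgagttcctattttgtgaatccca
The HOXD13 window held 24 CG dinucleotides and that of HOXD12 19, while the levels of the 2 genes were far apart. HOXA4 had 27 and HOXA6 29. The promoter table matched 20 of the 39 members with 27 windows, of which the median held 22 CG dinucleotides, beside a median of 14 over all 35116 windows of 300 bases. Windows of 3 of the 4 members under 1 CPM were in the table, and they ran from 11 CG dinucleotides (HOXB1) over 19 (HOXD12) to 36 (HOXD1). The motif TATAAA on either strand was present in 5 of the 27 HOX windows (1 each for HOXA3, HOXA9 and HOXD13 and 2 for HOXA10) and in 11.5% of all windows. HOXB9, the most abundant member, had no entry.

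The mature sequence of miR-7, the microRNA bound by ciRS-7, is shown with its seed (bases 2 to 8) in capitals because the depletion concerns a binder of miR-7, and the search for a match used these bases. Below it stand the 24-base sites of 3 members, from GENCODE 29 transcripts on GRCh38, with the match in capitals.
hsa-miR-7-5p: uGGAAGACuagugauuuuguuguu
HOXB3: gagaggttgcttttaaGTCTTCCa
HOXB5: tttcgtttggtcttagGTCTTCCt
HOXB13: cccccaaactctctgaGTCTTCCc
The letters GTCTTCC, searched on the transcript strand, occurred in the longest 3′ UTR of 4 of the 39 members (HOXC12 was the other) and of 13.1% of 19469 genes. None of the 4 sites paired beyond 12 of the 24 bases of miR-7.

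Nearly the whole HOX repertoire was measured in these cells. Of the 39 genes, 28 had a mean of at least 10 CPM over the 24 libraries, 7 lay between 1 and 10 CPM (HOXA2, HOXA7, HOXB13, HOXC5, HOXD3, HOXD4 and HOXD8), and 4 were under 1 CPM (HOXB1, HOXC12, HOXD1 and HOXD12). All 11 HOXA genes reached 1 CPM, as did 9 of 10 HOXB, 8 of 9 HOXC and 7 of 9 HOXD genes. Counts were at least 10 in every library for 35 genes. In bulk RNA, fewer cells that express a gene and less of its RNA per cell cannot be told apart.

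Levels are compared between genes as CPM per kb of the deposited gene model, which reduces the effect of gene length. The length of that model need not be that of the transcripts expressed, and the order of genes and the shares depend on it. HOXB9 (hg19 chr17:46698521-46703718, minus strand), a posterior gene of the thoracic to lumbar range, was the most abundant at 99.55 ± 30.93 CPM per kb (SD, n = 24), rank 516 of all 60658 genes, and it was the highest HOX gene in 24 of 24 libraries. HOXD13, which patterns digits and the urogenital tract, came next with 47.18 ± 15.92 CPM per kb and was second in 17 libraries. HOXD10, a limb and lumbar gene, was second in 6 (35.04 ± 9.56 CPM per kb), and HOXA9 in 1 (32.41 ± 7.09 CPM per kb). HOXD10 and HOXA9 differed by less than their spread over libraries, as did the next members in order, HOXD11 (27.62 ± 4.69), HOXB6 (26.86 ± 6.92) and HOXA5 (25.85 ± 5.63 CPM per kb). The remaining leaders of their clusters were HOXA10 (22.94 ± 5.33), HOXB8 (18.25 ± 3.88), HOXC4 (20.79 ± 3.27), HOXC9 (17.21 ± 3.54) and HOXC10 (17.06 ± 4.58 CPM per kb). In the HOXC cluster an anterior gene, HOXC4, thus stood beside posterior ones, although its span contains HOXC5 and overlaps HOXC6.

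Members under 1 CPM sat next to more active ones. HOXD12 totalled 32 counts over the 24 libraries and was at 0 in 6 of them, with a mean of 0.1 CPM, between HOXD13 at 105.7 ± 35.66 CPM and HOXD11 at 58.29 ± 9.9 CPM (SD, n = 24). HOXC12 averaged 0.41 CPM between HOXC13 at 18.11 CPM and HOXC11 at 21.84 CPM. At the anterior ends, HOXB1, a hindbrain gene, had 1 count in all 24 libraries together, and HOXD1 had at most 10 counts in any library. HOXB2, the gene beside HOXB1, averaged 26.61 CPM. The members under 1 CPM thus belonged to paralog groups 1 and 12.

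Posterior genes carried most of the level. Paralogs 9 to 13 held 62.6% ± 2.8 of the summed HOX level per kb (SD, n = 24), paralogs 5 to 8 held 23.1% ± 1.7 and paralogs 1 to 4 held 14.2% ± 2.0. Paralog group 9 alone, of which all 4 genes were active, held 28.6%, group 10 held 13.5% and group 13 held 11%. By cluster, HOXB genes held 34.1% ± 4.5, HOXA genes 27.2% ± 2.8, HOXD genes 23.1% ± 2.8 and HOXC genes 15.7% ± 1.1. HOXB9 by itself weighed on these shares, since the HOXA share was 32.9% without it.

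Paralogs 9 to 13 held a smaller share of the HOX level in the syn-gRNA libraries than in all others. Paralogs 9 to 13 held 58.1% ± 0.7 in the syn-gRNA NTC group and 58.4% ± 0.1 in the syn-gRNA KD group (SD, n = 3 each), with a range of 57.2% to 58.6% over the 6 libraries. In the other 6 groups the mean lay between 63.4% and 65.2%, and the lowest of those 18 libraries was at 62.5%. No syn-gRNA library overlapped the others. The members of this block did not all move alike. HOXB9 (189.4 CPM in NTC and 201.7 CPM in KD), HOXD13, HOXA11 and HOXB13 had their lowest group means in syn-gRNA. HOXD11 (67.06 CPM in NTC and 70.86 CPM in KD), HOXC9, HOXC10 and HOXC11 had their highest there. Because the share of paralogs 9 to 13 was summed over the members after their levels were known, it was not tested. Setup, delivery and any difference in handling between setups cannot be told apart in this design.

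**Figure D1:**
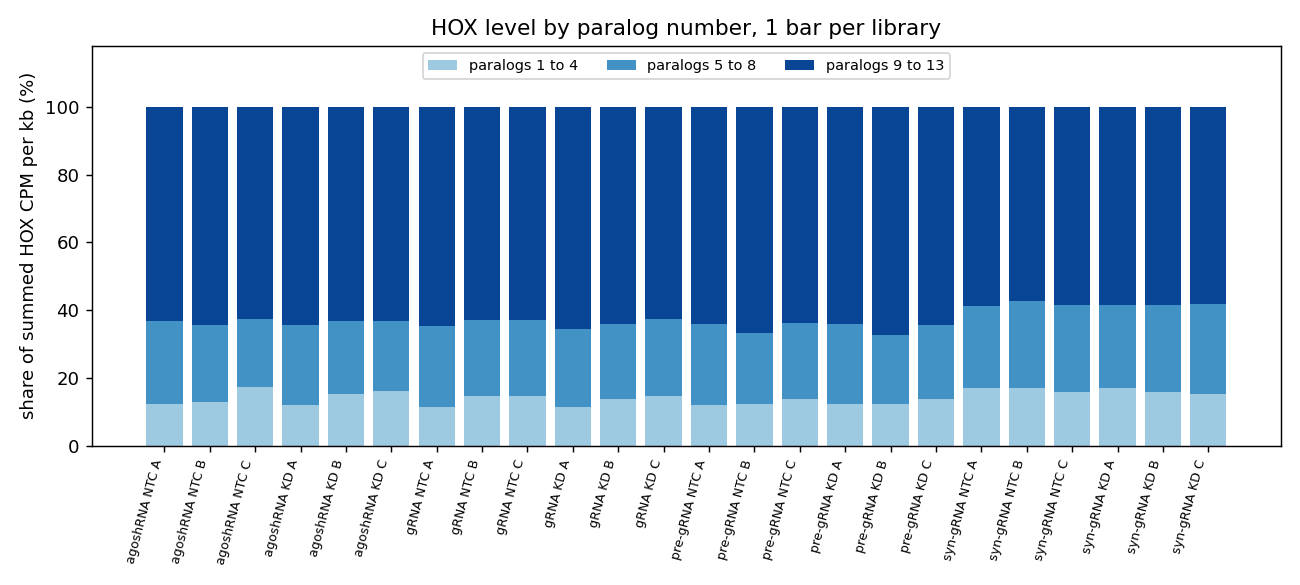
Share of the summed HOX level (CPM per kb, in percent) held by paralogs 1 to 4, 5 to 8 and 9 to 13, 1 stacked bar per library, by group. Paralogs 9 to 13 hold 57.2% to 58.6% in the 6 syn-gRNA libraries and at least 62.5% in the other 18.

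The order of the 39 genes was alike in all libraries. Spearman's rho between libraries over the 39 genes had a median of 0.96 and a lowest value of 0.88 over 276 pairs. This is a description over genes that share libraries, and the level range between the lowest and the highest genes contributes to it. Of the members that averaged 100 counts or more, HOXC4 varied least (CV 15.7% over 24 libraries, 37.93 to 67.94 CPM) and HOXB13, a prostate and tail-end gene, varied most (CV 55.3%, 1.95 to 21.58 CPM).

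Whether depletion of ciRS-7 altered HOX expression was asked in each setup by comparing KD with NTC. No HOX gene passed the test in any setup. Of 35 HOX genes tested per setup (10 or more counts in 3 or more of the 6 libraries), 0 had an adjusted p under 0.05 by the Wald test of DESeq2 with Benjamini-Hochberg adjustment over all genes, and 0 had an unadjusted p under 0.05. The share of all genes called was also 0% in each of the 4 setups, so these counts cannot tell whether HOX genes differ from the transcriptome at large. Unadjusted p-values under 0.05 were found for 0 of 17802 agoshRNA genes, 17 of 18371 in gRNA, 2 of 18717 in pre-gRNA and 55 of 18513 in syn-gRNA. These shares (0%, 0.0925%, 0.0107% and 0.297%) lie far below the cutoff of 0.05 itself. This fit, which does not pair libraries by letter, was thus conservative, and its 0 calls are weak evidence of no change. By edgeR's quasi-likelihood test too, 0 HOX genes were called in each setup. The share of all genes that edgeR called is not given here, so that count adds no evidence about HOX genes. The median HOX log2 fold change was 0.01 in agoshRNA, 0.06 in gRNA, 0.02 in pre-gRNA and 0.03 in syn-gRNA, beside 0.06, 0.02, 0.01 and 0.00 over all genes tested.

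In the fit without a block, standard errors differed by setup. The median standard error of a HOX gene was 0.44 in agoshRNA, 0.35 in gRNA, 0.39 in pre-gRNA and 0.17 in syn-gRNA on the log2 scale. With the column letter as a block, which pairs KD and NTC libraries, it was 0.21, 0.21, 0.14 and 0.14. Setups thus differed less in the paired fit. There too 0 HOX genes were called. The share of all genes called in that fit is not given here, so this count is no result about HOX genes. HOX fold changes ranged from -0.34 (HOXA6) to 0.34 (HOXB13) in agoshRNA and from -0.24 (HOXD3) to 0.47 (HOXB13) in gRNA. They ranged from -0.20 (HOXB13) to 0.38 (HOXA2) in pre-gRNA and from -0.25 (HOXD9) to 0.20 (HOXA5) in syn-gRNA. HOXB13 was the highest of all members in 2 setups and the lowest in another, with a standard error of 0.45 to 0.83 in those 3.

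The member with the smallest unadjusted p was another gene in each setup. HOXA4, an anterior trunk gene, had a log2 fold change of 0.31 with an SE of 0.42 in agoshRNA (DESeq2 adjusted p = 1). HOXB13 had 0.47 with an SE of 0.51 in gRNA (adjusted p = 1), and HOXA2, a hindbrain and branchial arch gene, had 0.38 with an SE of 0.57 in pre-gRNA (adjusted p = 1). HOXA5, a gene of lung and cervical identity, had 0.20 with an SE of 0.15 in syn-gRNA (adjusted p = 1). Its KD libraries read 47.85, 52.08 and 57.84 CPM and its NTC libraries 47.44, 43.22 and 45.78 CPM. All 3 KD values were thus above all 3 NTC values, by a small margin. In the authors' deposited table of each setup, the adjusted p-value of every HOX gene that had one was 1.

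Groups that did not overlap were few. In agoshRNA and gRNA 0 of 35 HOX genes had all KD libraries on one side of all NTC libraries in CPM, beside 0.871% and 2.3% of all genes tested. In pre-gRNA there was 1 (HOXD11, beside 1.13% of all genes), and in syn-gRNA there were 4 (HOXA5, HOXA9 and HOXD3 higher in KD, HOXD8 lower), beside 4.88%. An exact two-sided permutation test of 3 against 3 libraries on log2(CPM + 0.5) cannot give a p under 0.1, and these 5 of 140 tests stood at that value. HOXD11 read 65.25, 57.21 and 58.1 CPM in pre-gRNA KD and 56.67, 51.85 and 55.23 CPM in its NTC, so the lowest KD and the highest NTC library were close to each other.

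Genes with a miR-7 seed match were set beside the rest. Of the 4 members with a match, 3 were tested, and their median log2 fold change was 0.06 in agoshRNA, 0.06 in gRNA, -0.07 in pre-gRNA and 0.00 in syn-gRNA. The 32 tested members without a match had medians of -0.02, 0.06, 0.03 and 0.03. With 3 genes these medians are a description.

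Did the effect of KD differ between setups? The test of that difference, fitted on all 24 libraries, called 0 of 36 HOX genes in each of the 6 pairs of setups, where 0% of all 20172 genes were called as well. At an unadjusted p under 0.05 there were 0 HOX genes in each pair by DESeq2, against 29 to 45 of all genes (0.144% to 0.223%). These shares too lie far below the cutoff, so this fit could call little. The quasi-likelihood test of edgeR also called 0 HOX genes, for which the share of all genes is not given here.

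Setups were then compared with each other within an arm, NTC with NTC and KD with KD, in the model of all 24 libraries. HOXA4 (hg19 chr7:27168126-27170418, minus strand) was the member that differed most often, and it was higher in syn-gRNA. It read 42.27, 44.26 and 38.67 CPM in syn-gRNA NTC and 48.3, 39.93 and 40.84 CPM in syn-gRNA KD. In agoshRNA it read 13.37, 15.91 and 18.26 CPM (NTC) and 14.86, 23.94 and 18.5 CPM (KD). The gRNA libraries read 19.44, 26.92 and 29.39 CPM (NTC) and 19.94, 28.72 and 32.6 CPM (KD), and pre-gRNA libraries 18.73, 20.04 and 26.59 CPM (NTC) and 23.43, 21.1 and 24.23 CPM (KD). All 6 syn-gRNA libraries were above all 18 others. HOXA4 was lower than in syn-gRNA by a log2 difference of -1.40 (SE 0.27) in agoshRNA NTC, adjusted p = 0.00022 by DESeq2, and of -1.14 (SE 0.27) in agoshRNA KD, adjusted p = 0.00301. In pre-gRNA the difference was -0.96 (SE 0.26) in NTC and -0.97 (SE 0.26) in KD, with DESeq2 adjusted p-values of 0.017 and 0.0163. It was -0.86 in gRNA NTC and -0.73 in gRNA KD and did not pass the threshold there (adjusted p = 0.0641 and 0.138). Fitted on the 6 libraries of the pair alone, the gRNA NTC difference was -0.88 with an adjusted p of 0.0233, and that of agoshRNA KD was -1.13 with an adjusted p of 0.109. The pre-gRNA calls are the less stable ones: they were lost with edgeR (adjusted p = 0.0873 in NTC and 0.0896 in KD). In NTC they were also lost without pre-gRNA NTC A, syn-gRNA NTC B or syn-gRNA NTC C, with adjusted p-values from 0.0898 to 0.189. In KD, leaving out any library of the pair but pre-gRNA KD B ended the call, with adjusted p-values from 0.0726 to 0.13. The agoshRNA KD call was lost without agoshRNA KD A (-0.92, adjusted p = 0.0693).

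HOXA6 (hg19 chr7:27185015-27190222, minus strand), a trunk gene 2 places further along the cluster, was called once. It was lower in agoshRNA KD than in syn-gRNA KD by -1.18 (SE 0.32), DESeq2 adjusted p = 0.015. The agoshRNA KD libraries read 19.38, 10.42 and 6.85 CPM and the syn-gRNA KD libraries 22.15, 29.75 and 29.65 CPM, so the groups did not overlap but the agoshRNA A library lay close to the lowest syn-gRNA one. Leaving out agoshRNA KD C gave -0.93 with an adjusted p of 0.157, leaving out syn-gRNA KD B or C gave adjusted p-values of 0.132 and 0.147, edgeR gave 0.0829, and the 6 libraries of the pair alone gave -1.17 with an adjusted p of 0.21.

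These counts are set beside those of all genes. Against syn-gRNA the model called 1 of 36 HOX genes in agoshRNA NTC (1.84% of all genes), 0 in gRNA NTC (1.32%), 1 in pre-gRNA NTC (3.25%), 2 in agoshRNA KD (3.14%), 0 in gRNA KD (1.58%) and 1 in pre-gRNA KD (2.52%). These counts depend on the fit. For agoshRNA KD they ran from 1 to 6 when 1 library was left out, the 6 without agoshRNA KD B, where 10.8% of all genes were called. With an offset for GC content they were higher in all 6 comparisons, as given with the GC values of the libraries. Among the other 3 setups 0 HOX genes were called in any pair. The background there was 0.0496% for agoshRNA against gRNA, 0.0347% for agoshRNA against pre-gRNA and 0% for gRNA against pre-gRNA in NTC, and 0.0446%, 0.0446% and 0% in KD. At an unadjusted p under 0.05, agoshRNA differed from gRNA in 2 of 36 HOX genes in NTC (1.83% of all genes) and 1 in KD (1.75%). It differed from pre-gRNA in 3 in NTC (2.81%) and 2 in KD (2.22%). For gRNA against pre-gRNA there were 0 in both arms (0.516% and 0.233% of all genes).

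**Figure D2:**
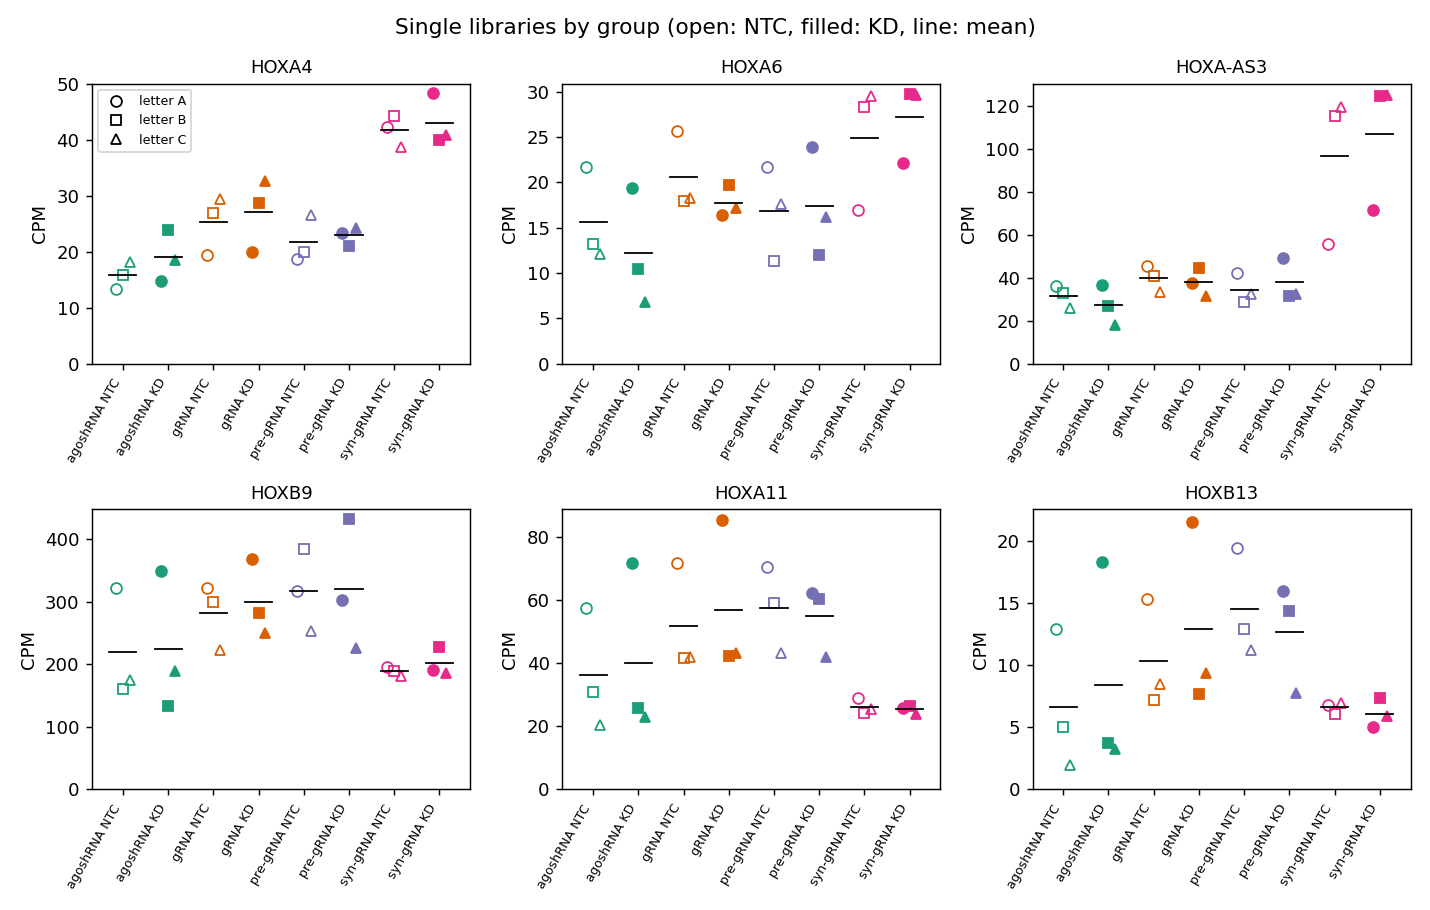
Level in CPM (y axis, from 0) of HOXA4, HOXA6, HOXA-AS3, HOXB9, HOXA11 and HOXB13 in each library, by group, with the column letter as marker shape, open points for NTC, filled points for KD and a line at the group mean. All 6 syn-gRNA libraries are the highest for HOXA4 and HOXA-AS3, while HOXB9, HOXA11 and HOXB13 spread by letter within the other groups.

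Antisense RNAs of the same stretch were also higher in syn-gRNA. HOXA-AS3 (hg19 chr7:27169596-27195547, plus strand), a long non-coding RNA transcribed on the opposite strand over part of the stretch from HOXA3 to HOXA7, was lower than in syn-gRNA in all 6 comparisons. Its log2 differences were -1.64, -1.44 and -1.54 in agoshRNA, gRNA and pre-gRNA NTC and -1.99, -1.54 and -1.58 in KD (SE 0.32 each), with DESeq2 adjusted p-values from 3.47e-06 to 0.00403. It read 55.62 to 124.97 CPM in the 6 syn-gRNA libraries and 17.98 to 49.3 CPM in the other 18. HOXA-AS2, its neighbour, was lower in agoshRNA NTC (-0.95, SE 0.25, DESeq2 adjusted p = 0.0165), pre-gRNA NTC (-0.92, adjusted p = 0.0142) and agoshRNA KD (-0.98, adjusted p = 0.00761). It read 50.57 to 54.68 CPM in syn-gRNA and 23.82 to 42.93 CPM elsewhere.

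The libraries are non-stranded, so reads from a HOX gene and from an antisense RNA over it cannot be told apart. In GENCODE 29, HOXA6 shared 39.3% of its exon bases with exons of HOXA-AS3 and HOXA7 shared 62.5%. HOXA4 shared 1.8% with HOXA-AS3 and 14.5% with HOXA-AS2, and HOXA5 shared 0 bases with either. HOXA7, which had the largest shared part of these members, had log2 differences from syn-gRNA that ran from -0.19 to 0.69, none of them called. HOXA5 differed by -0.01 to -0.69 and HOXA3 by -0.25 to -0.61, none called. How the counting step treated reads in shared exons is not given in the sources used here, and its part in the HOXA4 and HOXA6 differences was not tested. Over the whole set, 33 of the 39 members overlap the span of another gene, 25 a gene on the opposite strand and 22 another HOX gene.

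HOXA11, a limb and kidney gene, went the other way without a call. It read 24.01 to 28.92 CPM in the 6 syn-gRNA libraries, 41.73 to 85.42 CPM in the 6 gRNA libraries and 42.09 to 70.35 CPM in the 6 pre-gRNA libraries, which do not overlap with syn-gRNA. In agoshRNA the range was 20.29 to 71.69 CPM. The log2 difference from syn-gRNA was 0.83 in gRNA NTC, 1.13 in pre-gRNA NTC, 1.15 in gRNA KD and 1.07 in pre-gRNA KD, each with an SE of 0.42 and DESeq2 adjusted p-values from 0.107 to 0.405. With the 6 libraries of the pair alone HOXA11 was called in gRNA NTC, pre-gRNA NTC and pre-gRNA KD.

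The agoshRNA libraries were lower than the plasmid CasRx libraries for most members, in small steps. In NTC, 34 of 36 HOX genes lay lower in agoshRNA than in gRNA (median log2 difference -0.30) and 32 of 36 lower than in pre-gRNA (-0.26). In KD it was 34 of 36 in both (medians -0.34 and -0.33). Over all genes tested these medians were -0.01, -0.03, 0.00 and 0.00. None of these members was called, and HOX genes share libraries, so the counts carry no test. Summed HOX level was 1598.5, 1073.3 and 925.8 CPM in agoshRNA NTC A, B and C and 1663.0, 1037.6 and 798.6 CPM in agoshRNA KD A, B and C, while the 12 gRNA and pre-gRNA libraries lay between 1356.3 and 1801.3 CPM. Libraries B and C of agoshRNA were thus low and A was not. Without agoshRNA NTC C the medians were -0.15 and -0.16, and without agoshRNA KD C they were -0.22 and -0.18. Without the A library they were -0.47 and -0.39 in NTC and -0.54 and -0.54 in KD.

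HOXC6, a thoracic gene, was the member with the smallest p in each of these 4 comparisons. It read 36.32, 18.81 and 18.01 CPM in agoshRNA NTC and 39.12, 20.92 and 19.27 CPM in agoshRNA KD, beside 35.71 to 47.75 CPM in the 12 gRNA and pre-gRNA libraries. Its log2 differences were -0.65 and -0.78 in NTC and -0.55 and -0.60 in KD, with an SE of 0.27 and a DESeq2 adjusted p of 1 each. Here too the A library of agoshRNA lay with the other setups.

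The count table gives the libraries of each group the letters A, B and C, and KD and NTC libraries with the same letter were close to each other. KD and NTC libraries of 1 setup that carry the same letter differed by a median of 0.18 over 34 HOX genes with at least 50 counts on average (mean absolute log2 difference per gene, 12 pairs). Libraries of 1 group with other letters differed by 0.41 (24 pairs), and libraries of different setups in the same arm by 0.44 (108 pairs). The same-letter difference was the smaller of the first pair of measures in 34 of 34 HOX genes and in 99.5% of 13835 genes of the whole table, whose medians were 0.21, 0.54 and 0.54. What the letters stand for is not given in the labels.

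**Figure D3:**
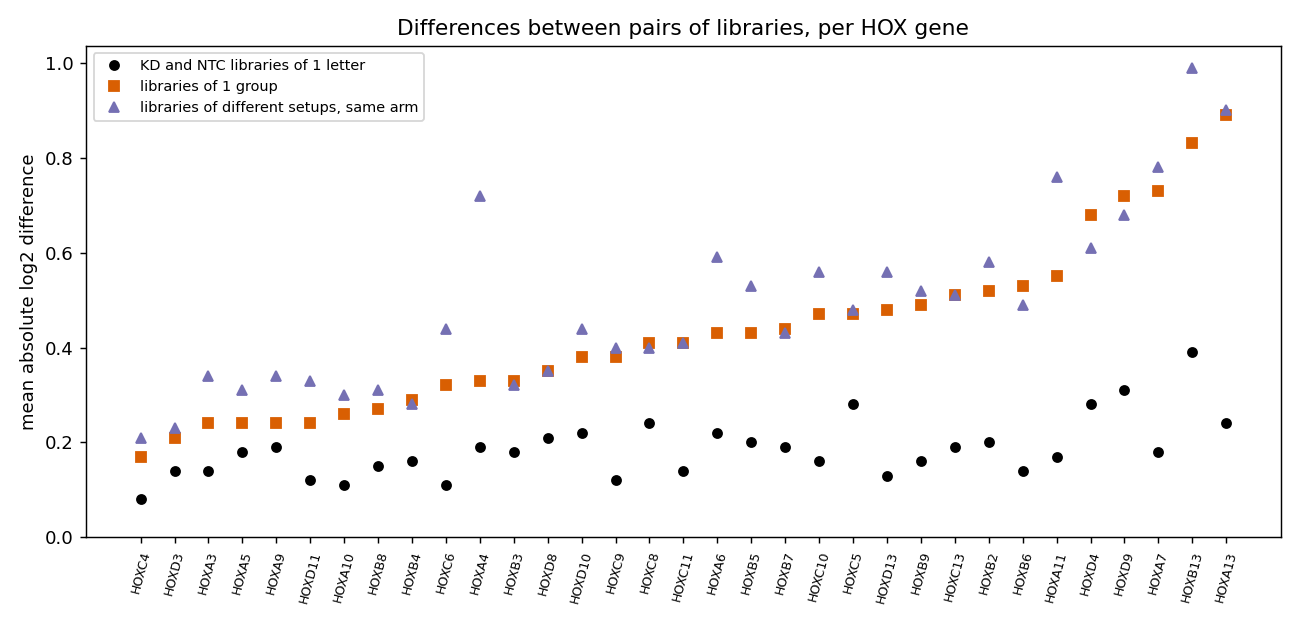
Mean absolute log2 difference (y axis, from 0) between pairs of libraries for 33 HOX genes, for KD and NTC libraries of 1 setup with the same letter, libraries of 1 group, and libraries of different setups in the same arm. Same-letter pairs are the lowest for all 33 genes drawn.

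HOXB9 shows the pattern in single libraries. In agoshRNA it read 322.3, 160.6 and 175.4 CPM (NTC) and 349.8, 133.7 and 189.6 CPM (KD) for letters A, B and C. In gRNA it read 322.5, 300.4 and 222.4 CPM (NTC) and 367.8, 282.6 and 249.8 CPM (KD). The pre-gRNA libraries read 316.5, 384.1 and 253.4 CPM (NTC) and 302.9, 432.8 and 226.8 CPM (KD), and those of syn-gRNA 196.3, 190.1 and 181.7 CPM (NTC) and 190.5, 228.2 and 186.4 CPM (KD). The highest letter was the same in both arms of agoshRNA, gRNA and pre-gRNA, and the 6 syn-gRNA values spanned a narrow range.

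HOXB13 and HOXD13 were highest in the A libraries of agoshRNA, as were members of other paralog groups such as HOXB9 and HOXC6. Of the rest of group 13, HOXC13 was highest in A too, while HOXA13 was highest in B (29.53 CPM in NTC and 33.35 CPM in KD). HOXB13 read 12.92, 5.06 and 1.95 CPM in agoshRNA NTC and 18.36, 3.74 and 3.25 CPM in agoshRNA KD, and HOXD13 read 155.8, 88.58 and 51.61 CPM and 171.3, 79.35 and 45.21 CPM there. In syn-gRNA the ranges were 5.05 to 7.34 CPM for HOXB13 and 63.51 to 88.06 CPM for HOXD13. HOXD10 and HOXB9 differed in pre-gRNA. There the B libraries were the lowest for HOXD10 (52.35 CPM in NTC and 56.5 CPM in KD, beside 84.08 to 125.2 CPM in the A and C libraries) and the highest for HOXB9.

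The base composition of the libraries moved with these differences. The mean GC content of transcripts weighted by their counts ran from 47.32% (agoshRNA KD B) to 52.31% (pre-gRNA NTC B). Over the 24 libraries Pearson's r of a gene's level with this value was 0.91 for HOXB7, 0.88 for HOXB9 and 0.83 for HOXC13, and -0.81 for HOXD10, -0.71 for HOXA9 and -0.64 for HOXD9. These are descriptions over libraries that share letters. HOX transcripts had a median GC of 55.3%, beside 48.8% for all genes tested. Of the members just named, HOXB7 had 50.8%, HOXB9 55.3% and HOXC13 57.7%, while HOXD10 had 48.1%, HOXA9 47.8% and HOXD9 62.7%. The part of base composition in the HOX differences was not tested. With an offset for GC content in the fit, 9 of 36 HOX genes were called in agoshRNA NTC against syn-gRNA (7.13% of all genes), 6 in pre-gRNA NTC (8.67%) and 3 in gRNA NTC (5.79%). In KD the counts were 13 in agoshRNA (8.06% of all genes), 5 in pre-gRNA (7.75%) and 3 in gRNA (5.04%). As shares of the 36 members these are 25%, 16.7%, 8.33%, 36.1%, 13.9% and 8.33%, and their difference from the share of all genes was not tested. Of the 5 in pre-gRNA KD, HOXA11 was the one that was higher. With this offset the same-letter and other-letter medians became 0.17 and 0.33, and the median between setups stayed at 0.44.

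The genes known to work with or to control the HOX clusters were also measured. All 9 TALE cofactors, which bind DNA beside HOX proteins, had at least 1 CPM, with PBX2 at 109.3 CPM and PBX3 at 28.75 CPM. All 21 Polycomb genes and all 13 trithorax and H3K27 demethylase genes did as well, led by RBBP4 at 385.7 CPM and PSIP1 at 168.9 CPM, and EZH2, the H3K27 methyltransferase, averaged 118.9 CPM. Of 14 genes of retinoic acid signalling, which is known to induce anterior HOX genes, 11 had at least 1 CPM, led by ALDH1A2 (66.35 CPM). Of 7 other regulators of axial position 4 did. CDX2, a caudal factor known to act on posterior HOX genes, averaged 20.46 CPM, while CDX1 had at most 1 count in any library and CDX4 had 0 in all 24. A count of 0 allows up to 0.185 CPM in the deepest and 0.273 CPM in the shallowest library (3 counts, counting error only). Of 7 ParaHox and cluster-linked homeobox genes only PDX1 reached 1 CPM (2.47 CPM). Among the HOX-locus non-coding RNAs, 10 of 15 names matched, and all 10 had at least 1 CPM.

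None of these lists held a called gene for KD against NTC in any setup. Between setups, besides HOXA-AS2 and HOXA-AS3, CBX7 of Polycomb complex 1 was higher in agoshRNA KD than in syn-gRNA KD (1.27, SE 0.34, DESeq2 adjusted p = 0.015), and ASH2L, a subunit of trithorax-type methyltransferases, was higher in gRNA NTC than in syn-gRNA NTC (0.93, SE 0.27, adjusted p = 0.045). Of the genes tested between setups, 0 of 9 TALE, 0 of 11 retinoic acid, 0 of 5 axial and 0 of 2 homeobox genes were called in any comparison, where the share of all genes called ran from 0% to 3.25%.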

How the data were processed

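Poly(A)-selected, non-stranded paired-end RNA-seq of 24 libraries (8 groups of 3) was analysed. The authors deposited 4 tables with identical raw read counts of 60658 genes, together with their own log2 fold changes and p-values. Per the submitters' processing notes, Trim Galore, STAR 2.7.3a, featureCounts, DESeq2 and the build hg19 were used; settings and annotation release are not given in the sources used here. Deposited columns of normalized counts were not used.

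CPM are counts per 1000000 of a library's total, and CPM per kb divides them by the gene model length deposited by the authors. KD was tested against NTC within a setup by the DESeq2 1.42.0 Wald test (R 4.3.3) on 6 libraries. Setups, and differences of the KD effect, were tested in 1 DESeq2 model of 24 libraries with 1 coefficient per group. A gene needed 10 or more counts in 3 or more libraries of the fit, and Benjamini-Hochberg adjusted p under 0.05 was called. Alternatives were edgeR 4.0.16, TMM factors, no filter, an offset for GC content, the column letter as a block, the 6 libraries of a pair alone, and leaving out each library. Scripts were tested on simulated data. GC content came from GENCODE 29, which matched 93.2% of genes and all 39 HOX genes.

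Libraries are named by setup, arm and column letter, because nothing links letters to the labels' replicate numbers. KD and NTC libraries of a letter deviated together from their group means in 12 of 12 pairs (r from 0.36 to 0.97 over 13835 genes), so the letters were taken to pair the libraries, from the data alone.

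Named in full were the 3 most abundant HOX genes per kb in each cluster, those called in any comparison, the smallest p per setup, and the highest and lowest CV. HOXA11, HOXA7, HOXA3, HOXC6, HOXD12 and the other members described singly were chosen after their values were seen, as were the alternatives for HOXA4 and HOXA6 between setups and for the agoshRNA medians. Members and lists were chosen with earlier results of these data known. Single values of 1 member and of 2 list genes are not reported here, and that member is not drawn, though all 3 stay in the counts and sums.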

Additional observations from a re-analysis of the deposited data

How the results depend on the processing

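For KD against NTC, 0 HOX genes were called under all 48 alternatives, and of 768 single-gene values of the named members under alternatives 0 passed the threshold, though 130 had the other sign. With the column letter as a replicate block 0 HOX genes were called in each setup. The share of all genes called under these alternatives was not set beside these counts of 0, so they are no result about HOX genes. The letter block lowered the median standard error from 0.44 to 0.21 in agoshRNA and from 0.39 to 0.14 in pre-gRNA. Together with the GC offset, 5 of 35 HOX genes had an unadjusted p under 0.05 in pre-gRNA (smallest for HOXD9, 0.42, SE 0.15, DESeq2 adjusted p = 1). In agoshRNA 2 did, and in gRNA and syn-gRNA 0 did. The share of all genes under that cutoff in this fit was not set beside these counts, so they are no result about HOX genes. Differences of the KD effect between setups gave 0 calls under all 29 alternatives, again without the share of all genes beside them. Leaving out 1 library gave 0 to 0 calls there and in each KD comparison.

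Counts between setups moved. With the GC offset, agoshRNA NTC against gRNA NTC and against pre-gRNA NTC gave 1 each and agoshRNA KD against pre-gRNA KD gave 1 (HOXC6 in each), beside 0.0992%, 0.144% and 0.109% of all genes. Against syn-gRNA the GC offset gave 9 (agoshRNA NTC), 3 (gRNA NTC), 6 (pre-gRNA NTC), 13 (agoshRNA KD), 3 (gRNA KD) and 5 (pre-gRNA KD), beside 7.13%, 5.79%, 8.67%, 8.06%, 5.04% and 7.75% of all genes. With the 6 libraries of the pair alone, gRNA NTC gave 2, pre-gRNA NTC 3, pre-gRNA KD 2 and agoshRNA KD 0 against syn-gRNA, beside 5.47%, 7.05%, 3.89% and 1.29% of all genes. With edgeR pre-gRNA NTC gave 0, pre-gRNA KD 0 and agoshRNA KD 1, beside 0.739%, 0.907% and 0.952% of all genes. Leaving out 1 library gave 0 to 1 call for pre-gRNA NTC, 0 to 1 for pre-gRNA KD and 1 to 6 for agoshRNA KD, the 6 without agoshRNA KD B, where 10.8% of all genes were called. The cause was not tested. HOXA4 and HOXA6 kept their sign against syn-gRNA in 132 of 132 alternatives, while a call was lost in 17 of them and gained in 1. Both genes were picked for being called, and the alternatives refit the same libraries, so the kept sign was nearly fixed in advance and adds no support. The number of members at a mean of 1 CPM stayed within 1.5 times of 35 in all alternatives, and the HOXA share moved only without HOXB9, to 32.9%. Depth limits HOXB1, HOXC12, HOXD1 and HOXD12, which were not tested for KD against NTC.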
